A study of Mus musculus and Homo sapiens with 176 samples.

Results

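Messages for the synthesis, vesicular loading, uptake and breakdown of the inhibitory transmitter GABA were followed across nuclear RNA of mouse prefrontal cortex (PFC) and cerebellum. The genes were chosen by symbol: Gad1, Gad2, Slc32a1, Slc6a11, Slc6a13 and Abat, which are 6 of the 24854 features in the RNA tables. Each has 1 feature, and 5 of the 6 passed the filter on low values (at least 1 FPKM in at least 2 libraries); Slc6a11 did not. FPKM divides the fragments of a gene by the length of its transcript and by the size of the library, which puts levels of different genes on 1 scale. The annotation and counting behind the FPKM are not stated, so how completely each gene was counted could not be checked. This bears on every level set beside that of another gene, and most on Slc6a11 and Slc32a1, which were very low.

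Chromatin and RNA were profiled in the series from small numbers of cells. All 8 RNA libraries came from 1 mouse, M3, of strain C57BL/6 aged 8 to 10 weeks, with no transgene or agent in the labels. Nuclei were sorted with an antibody to NeuN, the neuronal nuclear protein encoded by Rbfox3, into NeuN+ and NeuN- fractions (gates) of each region. This gave 4 groups with 2 libraries each: PFC NeuN+, PFC NeuN-, cerebellum NeuN+ and cerebellum NeuN-. The labels describe the dissection and sorting for cerebellum; the handling of PFC is not described there. Nothing in the labels says that the 2 libraries of a group are separate sorts, so p-values measure only the spread between libraries of 1 animal, which may be technical.

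GABA is made from glutamate by glutamate decarboxylase, an enzyme that uses pyridoxal phosphate as cofactor. The Gad1 product, GAD67, is found throughout the neuron, while the Gad2 product, GAD65, is concentrated at nerve endings. Slc32a1 encodes VGAT, the carrier that fills synaptic vesicles with GABA or glycine. After release, plasma membrane carriers of the Slc6 family take GABA up into neurons and glia: Slc6a11 encodes the astrocytic GAT-3, and Slc6a13 encodes GAT-2, known from the leptomeninges and other non-neuronal sites. Abat encodes GABA transaminase, the mitochondrial enzyme that starts GABA breakdown. In cortex, GABA neurons are a minority beside glutamatergic projection neurons. In cerebellum, the very numerous granule cells are glutamatergic and stain strongly for NeuN, while Purkinje cells, which are GABA neurons, are known to stain weakly or not at all.

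In the mm9 coordinates of the tables, Gad1 lies at chr2:70400221-70440069, Gad2 at chr2:22477847-22549397 and Slc32a1 at chr2:158436494-158441483. Slc6a11 lies at chr6:114081235-114199880, Slc6a13 at chr6:121250314-121287736 and Abat at chr16:8513522-8621660. Slc6a13 is followed by Slc6a12, the gene of the betaine and GABA carrier BGT1, 8978 bases on. Whether reads were assigned by strand is not stated in the labels, so fragments of the antisense feature Gad1os, which overlaps the Gad1 feature, cannot be told apart from those of Gad1. Gad1os stood at 0.219 scaled FPKM in PFC NeuN+ and was listed at 0 in the other groups.

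Upstream sequence is shown for the paired decarboxylase genes, whose levels did not move alike, and for the neighbours Slc6a13 and Slc6a12, which were both higher in NeuN- nuclei. Each line gives the 250 bases before the first RefSeq start of the gene, on GRCm38.p6, plus strand, 5′ to 3′, with every CG dinucleotide in capitals.
Gad1 (chr2:70561879-70562128): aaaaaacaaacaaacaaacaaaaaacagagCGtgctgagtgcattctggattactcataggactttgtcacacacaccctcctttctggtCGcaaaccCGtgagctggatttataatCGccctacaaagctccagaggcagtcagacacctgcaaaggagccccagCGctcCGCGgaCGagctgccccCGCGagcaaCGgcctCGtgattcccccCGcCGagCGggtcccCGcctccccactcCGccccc
Gad2 (chr2:22622077-22622326): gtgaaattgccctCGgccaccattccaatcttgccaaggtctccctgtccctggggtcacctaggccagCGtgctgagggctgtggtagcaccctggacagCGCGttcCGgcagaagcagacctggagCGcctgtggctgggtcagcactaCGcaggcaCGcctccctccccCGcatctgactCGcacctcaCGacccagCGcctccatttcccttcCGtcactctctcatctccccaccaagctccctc
Slc6a13 (chr6:121300038-121300287): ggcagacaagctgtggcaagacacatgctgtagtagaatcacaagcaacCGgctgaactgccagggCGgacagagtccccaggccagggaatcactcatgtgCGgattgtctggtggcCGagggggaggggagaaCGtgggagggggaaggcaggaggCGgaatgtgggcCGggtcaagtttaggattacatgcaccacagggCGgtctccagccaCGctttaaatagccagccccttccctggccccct
Slc6a12 (chr6:121342324-121342573): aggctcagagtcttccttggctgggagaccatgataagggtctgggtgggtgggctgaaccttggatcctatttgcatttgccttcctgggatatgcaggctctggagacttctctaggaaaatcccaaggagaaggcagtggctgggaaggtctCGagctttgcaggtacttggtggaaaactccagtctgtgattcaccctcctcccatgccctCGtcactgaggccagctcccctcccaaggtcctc
The Gad1 window holds 17 CG dinucleotides, the Gad2 window 13, the Slc6a13 window 9 and the Slc6a12 window 2. Across the first starts of 27025 RefSeq genes, windows of the same length had a median of 6, and 23.5%, 31.8%, 40.8% and 80.5% of them held at least as many. The motif TATAAA, searched on both strands, has 1 match in the Gad1 window and 0 in the other windows shown; 13% of all windows hold it. The motif GGGCGG, also searched on both strands, has 1 match in the Gad1 window, 2 in the Slc6a13 window and 0 in those of Gad2 and Slc6a12; 33.0% of all windows hold it. These matches describe the letters of the windows only. The first RefSeq start of a gene need not be the start of its measured mm9 feature. For Slc6a12 the coordinates point to a RefSeq start before that of the feature, so its window may not lie directly upstream of what was measured.

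Facts of the whole set of libraries bear on every comparison below. FPKM summed to between 289350 and 426851 per library, with both PFC NeuN- libraries at 414230 or more and the other 6 at 307198 or less, and the absolute depth is unknown. For that reason FPKM were scaled between libraries, and levels called scaled FPKM include this factor. The share of called features that were higher in PFC NeuN+ was 48.2% with the scaling used, 36.0% without scaling, 59.9% with a common sum per library and 55.4% with quantile normalization, and the median log2 change of all features moved from -0.01 to -0.19, 0.14 and 0.08. For cerebellum against PFC in NeuN- nuclei the share was 51.0%, 42.6%, 62.1% and 53.2% in the same order, and the median moved from 0.02 to -0.13, 0.26 and 0.07. In the cerebellar gate comparison it was 45.2% with the scaling used and 55.8% with quantile normalization. For the difference of the gate changes it was 47.2%, and 57.6% without scaling, and the median moved from -0.06 to 0.13 without scaling and -0.23 with a common sum. Rbfox3 was higher in NeuN+ in both regions, 1.39-fold in PFC and 3.51-fold in cerebellum on the scale of FPKM + 1. All comparisons used limma on log2(scaled FPKM + 1) over 14376 features, with a call at a Benjamini-Hochberg adjusted p under 0.05. Every fold given below is on this scale of FPKM + 1, which understates the ratio of levels, most for low genes. Ratios of scaled means are named as ratios.

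**Figure D1:**
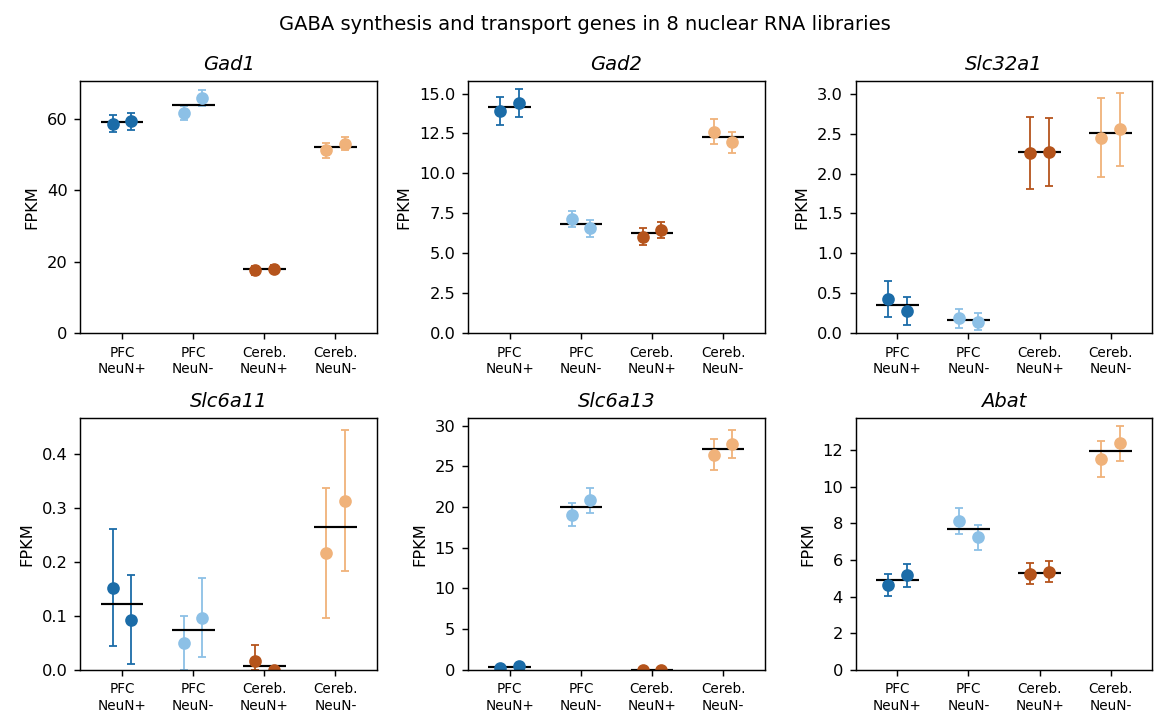
FPKM of the 6 genes (vertical axes, linear, each panel with its own range) in the 4 groups; points are libraries, whiskers are the confidence limits deposited with each FPKM, and black bars are group means. Gad1 is low only in cerebellum NeuN+ (17.6 and 18.1 FPKM), Slc6a13 is at or near 0 in both NeuN+ groups, and Slc6a11 stays at or below 0.314 FPKM everywhere.

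Gad1 was the most abundant of the 6 messages in every library and was low in 1 group, cerebellum NeuN+. Its FPKM was 58.7 and 59.4 in PFC NeuN+, 61.7 and 65.9 in PFC NeuN-, 17.6 and 18.1 in cerebellum NeuN+, and 51.2 and 53.1 in cerebellum NeuN-. The 2 cerebellum NeuN+ libraries lay below all others, and the other 3 groups lay between 51.2 and 65.9 FPKM. As group means of scaled FPKM, the order was PFC NeuN+ (61.2 ± 0.450, SD, n = 2), PFC NeuN- (56.1 ± 3.39), cerebellum NeuN- (53.5 ± 1.09) and cerebellum NeuN+ (18.3 ± 0.247). Within cerebellum, Gad1 was 2.82-fold lower in NeuN+ (log2 change -1.50, SE 0.0515, limma adjusted p = 1.3e-06). Between NeuN+ groups it was 3.22-fold lower in cerebellum than in PFC (limma adjusted p = 5.2e-07).

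Between the PFC gates Gad1 did not pass the test. The log2 change was 0.13 (95% interval 0.0013 to 0.249, limma adjusted p = 0.0649). Its sign depended on library scaling: it was -0.11 without scaling (limma adjusted p = 0.0774), 0.34 with a common sum (adjusted p = 0.00131) and 0.31 with quantile normalization (adjusted p = 0.00126). Set against the median of all features, it was 0.14, 0.08, 0.20 and 0.24 above that median under the 4 scalings. Leaving out PFC NeuN- replicate 2 also brought a call (0.18, limma adjusted p = 0.0175). NeuN- nuclei of the 2 regions likewise had a log2 change of -0.06 in Gad1 (cerebellum minus PFC, 95% interval -0.19 to 0.06, limma adjusted p = 0.287), which depended on the scaling. It passed the test downward without scaling (-0.29, limma adjusted p = 0.00134) and upward with a common sum (0.24, adjusted p = 0.006) and with quantile normalization (0.24, adjusted p = 0.00404).

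Gad2 changed between the gates in opposite directions in the 2 regions. Its FPKM was 13.9 and 14.4 in PFC NeuN+, 7.13 and 6.55 in PFC NeuN-, 6.04 and 6.46 in cerebellum NeuN+, and 12.6 and 11.9 in cerebellum NeuN-. PFC NeuN+ and cerebellum NeuN- were the high groups, and no library of either came near the 4 low libraries. In scaled FPKM the groups ran from 14.7 ± 0.364 in PFC NeuN+ and 12.6 ± 0.558 in cerebellum NeuN- to 6.42 ± 0.267 in cerebellum NeuN+ and 6.00 ± 0.273 in PFC NeuN- (SD, n = 2). The order of the 2 low groups is the reverse in unscaled FPKM, and these diagonal pairs of groups were not tested.

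In PFC, Gad2 rose 2.24-fold in NeuN+ (limma adjusted p = 7.5e-06), and in cerebellum it fell 1.83-fold in NeuN+ (limma adjusted p = 2.5e-05). Cerebellum was 2.11-fold lower than PFC among NeuN+ groups and 1.94-fold higher among NeuN- groups (limma adjusted p = 7.5e-06 and 1.3e-05). The difference between the regions in the gate change was -2.04 on the log2 scale for Gad2 (SE 0.0885, limma adjusted p = 8.3e-06) and -1.62 for Gad1 (SE 0.0728, limma adjusted p = 9.1e-06). The scaling changed neither sign nor call of these Gad2 results, as the plot of changes under 4 scalings shows.

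**Figure D2:**
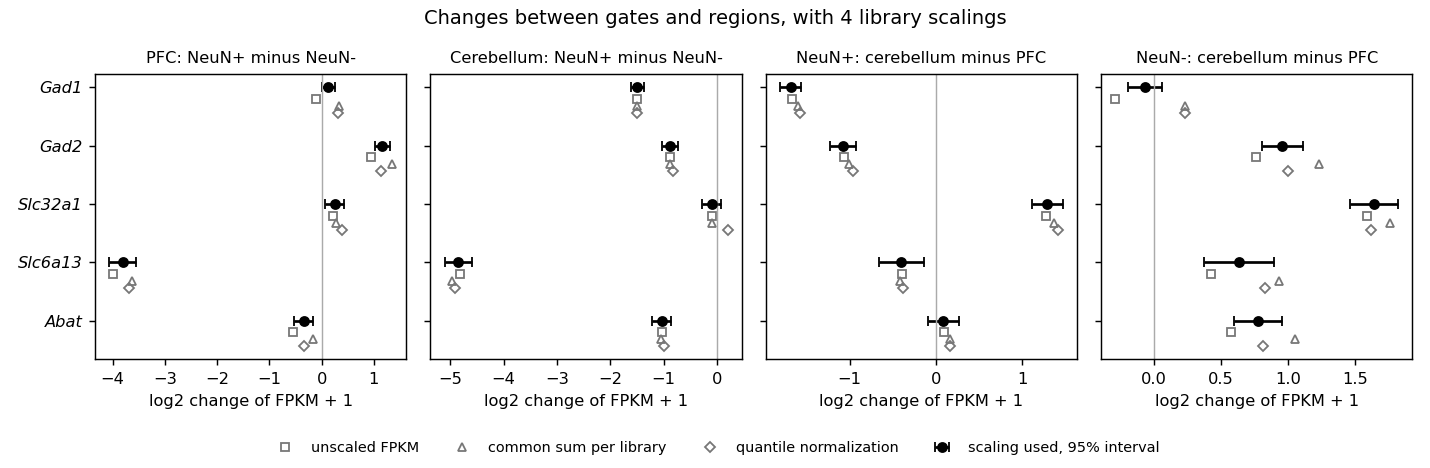
Log2 change of FPKM + 1 (horizontal axis) of the 5 genes that passed the filter, in the 4 comparisons named above the panels; black points and bars are the limma estimate and its 95% interval with the scaling used, and open symbols are the estimates under 3 other scalings. Gad2 lies right of 0 in PFC (1.16) and left of 0 in cerebellum (-0.87), while for Gad1 in PFC the 4 estimates fall on both sides of 0.

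The proportion of the 2 decarboxylase messages differed from group to group. Within a library, where scaling cancels out, the FPKM of Gad1 was 4.22 and 4.12 times that of Gad2 in PFC NeuN+ and 8.66 and 10.1 times in PFC NeuN-. In cerebellum the ratio was 2.91 and 2.80 in NeuN+ and 4.06 and 4.45 in NeuN-. The ratio was higher in NeuN- than in NeuN+ in each region, with no overlap of libraries; this ratio was not tested. The sum of both messages was 68.8 to 73.8 FPKM in the 4 PFC libraries, 63.8 and 65.0 in cerebellum NeuN- and 23.6 and 24.5 in cerebellum NeuN+.

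Slc32a1, the vesicular carrier message, did not follow the decarboxylases among NeuN+ groups, where it was higher in cerebellum while Gad1 and Gad2 were lower. As with Gad2, the Slc32a1 mean was higher in PFC NeuN+ and in cerebellum NeuN- than in PFC NeuN-. Its FPKM was 0.425 and 0.276 in PFC NeuN+, 0.187 and 0.144 in PFC NeuN-, 2.26 and 2.27 in cerebellum NeuN+, and 2.45 and 2.56 in cerebellum NeuN-. All 4 cerebellar libraries lay above all 4 PFC libraries. Among NeuN+ groups the scaled mean was 2.33 ± 0.00443 in cerebellum and 0.363 ± 0.109 in PFC (SD, n = 2), a ratio of 6.42, and 2.45-fold on the scale of FPKM + 1 (limma adjusted p = 7.6e-06). Among NeuN- groups it was 2.57 ± 0.0627 and 0.145 ± 0.0248, a ratio of 17.7, and 3.12-fold on the scale of FPKM + 1 (limma adjusted p = 3.0e-06). Slc32a1 passed the filter on low values only through cerebellum, where it is high, so a difference between the regions was fixed in advance.

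Between gates, Slc32a1 passed the test in PFC and did not pass in cerebellum. In PFC the scaled mean in NeuN+ was 2.51 times that in NeuN-, a log2 change of 0.25 on the scale of FPKM + 1 (limma adjusted p = 0.0215), but the deposited confidence limits of the 2 gates overlapped (0.204 to 0.647 and 0.0977 to 0.454 FPKM in NeuN+, 0.0662 to 0.307 and 0.0350 to 0.252 in NeuN-). That call was lost without PFC NeuN+ replicate 1 (0.17, adjusted p = 0.113), PFC NeuN- replicate 1 (0.27, adjusted p = 0.052) or PFC NeuN- replicate 2 (0.22, adjusted p = 0.0887), each by limma. In cerebellum the gate change of Slc32a1 was -0.10 (95% interval -0.28 to 0.08, limma adjusted p = 0.271), and 0.20 with quantile normalization (adjusted p = 0.0444). As listed in the tables, and subject to the unchecked counting of each gene, Slc32a1 came to 0.198% to 0.585% of the summed Gad1 and Gad2 FPKM in PFC libraries, 9.57% and 9.27% in cerebellum NeuN+ and 3.84% and 3.93% in cerebellum NeuN-.

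Directly before Slc32a1, the predicted gene Gm14204 ends 34 bases from the Slc32a1 feature. It stood at 11.6 scaled FPKM in PFC NeuN+, 4.64 in PFC NeuN-, 20.0 in cerebellum NeuN+ and 47.7 in cerebellum NeuN-, above Slc32a1 in every group. In Gm14204 the gates moved in opposite directions in the regions, 2.23-fold higher in NeuN+ of PFC and 2.32-fold lower in NeuN+ of cerebellum (limma adjusted p = 3.1e-05 and 2.3e-05).

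Slc6a13, the GAT-2 message, was high in NeuN- nuclei and at or near 0 in NeuN+ nuclei of both regions. Its FPKM was 0.189 and 0.442 in PFC NeuN+, 19.1 and 20.8 in PFC NeuN-, listed at 0 in both cerebellum NeuN+ libraries, and 26.4 and 27.7 in cerebellum NeuN-. The lowest NeuN- library thus stood far above the highest NeuN+ library. In PFC the scaled mean was 17.5 ± 1.35 in NeuN- and 0.327 ± 0.185 in NeuN+ (SD, n = 2), a ratio of 53.6, and 14.0-fold on the scale of FPKM + 1 (limma adjusted p = 6.0e-07). That ratio rests on low NeuN+ values and was 89.3 without PFC NeuN+ replicate 2 and 38.3 without PFC NeuN+ replicate 1. In cerebellum the log2 change was -4.85 with a pseudocount of 1 and -8.12 with a pseudocount of 0.1 (limma adjusted p = 3.5e-07 and 1.7e-06), and no fold is given because the NeuN+ values are listed at 0. Slc6a13 passed the filter only through the NeuN- groups, so a lower NeuN+ value was fixed in advance. Its p-values between gates are therefore no support for a difference from other genes, and the levels are given as a description.

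Between NeuN- groups, Slc6a13 was higher in cerebellum, at 27.8 ± 0.815 against 17.5 ± 1.35 scaled FPKM (1.56-fold on the scale of FPKM + 1, limma adjusted p = 0.0014). With a pseudocount of 0.1 that call was lost (log2 change 0.67, limma adjusted p = 0.0664). The NeuN+ groups differed by -0.40 (cerebellum minus PFC, limma adjusted p = 0.0127), a call lost without PFC NeuN+ replicate 2 (-0.26, adjusted p = 0.0552).

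Slc6a11, the GAT-3 message, was close to the lower limit of these tables in every group. Its FPKM was 0.153 and 0.0929 in PFC NeuN+, 0.0503 and 0.0967 in PFC NeuN-, 0.0154 and listed at 0 in cerebellum NeuN+, and 0.217 and 0.314 in cerebellum NeuN-. Cerebellum NeuN- was highest, and the PFC gates overlapped. When features were not filtered, cerebellum NeuN- stood above cerebellum NeuN+ by 0.34 in log2(scaled FPKM + 1) (change -0.34, 95% interval -0.45 to -0.22, limma adjusted p = 0.0017 over 19044 features). By the same test the PFC gates differed by 0.08 in Slc6a11 (95% interval -0.04 to 0.20, limma adjusted p = 0.190). Astrocyte genes as a list were far higher in NeuN- than in NeuN+ nuclei, with sums given further on.

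Abat, which starts GABA breakdown, was present in all groups and highest in cerebellum NeuN-. Its FPKM was 4.65 and 5.17 in PFC NeuN+, 8.12 and 7.23 in PFC NeuN-, 5.25 and 5.35 in cerebellum NeuN+, and 11.5 and 12.4 in cerebellum NeuN-. The NeuN- libraries of each region lay above its NeuN+ libraries. In scaled FPKM the order was cerebellum NeuN- (12.3 ± 0.545, SD, n = 2), PFC NeuN- (6.74 ± 0.453), cerebellum NeuN+ (5.45 ± 0.0389) and PFC NeuN+ (5.08 ± 0.375). The NeuN+ groups, last in that order, did not differ beyond their spread (log2 change 0.09, 95% interval -0.09 to 0.26, limma adjusted p = 0.334).

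Abat was 2.06-fold lower in NeuN+ of cerebellum (limma adjusted p = 2.6e-05) and 1.27-fold lower in NeuN+ of PFC (limma adjusted p = 0.00524). The PFC call was lost with a common sum per library (log2 change -0.16 in place of -0.35, adjusted p = 0.0938). In cerebellum NeuN-, Abat was 1.72-fold above PFC NeuN- (limma adjusted p = 8.0e-05). Its gate changes in the 2 regions differed by -0.69 (SE 0.106, limma adjusted p = 0.00115).

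Read over the 5 tested genes, the share called in the gate and region comparisons was near that of all features, which is no result about the members. Counts by direction, and the 5 of 5 called for the difference of the gate changes, were not tested against the shares of all features. In PFC, 2 of the 5 tested members rose in NeuN+ (Gad2, Slc32a1; background 35%), 2 fell (Slc6a13, Abat; background 37.6%) and Gad1 did not pass, where 72.6% of all tested features were called. In cerebellum 4 fell in NeuN+ (Gad1, Gad2, Slc6a13, Abat) and Slc32a1 did not pass, where 71.6% of all features were called, 32.4% higher and 39.2% lower. For cerebellum against PFC among NeuN+ groups, 1 member was higher (Slc32a1) and 3 were lower (Gad1, Gad2, Slc6a13), where 77.2% of features were called, 36.5% higher and 40.7% lower. Among NeuN- groups 4 were higher in cerebellum (Gad2, Slc32a1, Slc6a13, Abat), where 79.4% were called, 40.5% higher and 39% lower. The difference of the gate changes was called for 5 of 5 members, each with the lower NeuN+ minus NeuN- change in cerebellum, where 70.1% of all features were called, 33.1% in the opposite direction and 37% in that one. These counts include Slc32a1 and Slc6a13, which passed the filter only where they are high, and the comparisons share groups.

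Slc6a12, a further GABA carrier gene, was also lower in NeuN+ of both regions. It was listed at 0 in both PFC NeuN+ libraries and stood at 1.04 ± 0.398 scaled FPKM in PFC NeuN-, 0.0748 ± 0.0411 in cerebellum NeuN+ and 4.31 ± 0.175 in cerebellum NeuN- (SD, n = 2; limma adjusted p = 4.0e-04 in PFC and 8.1e-06 in cerebellum). Usp18, which precedes Slc6a13 on the chromosome, was also lower in NeuN+ of both regions (limma adjusted p = 5.7e-05 in PFC and 2.3e-06 in cerebellum), whereas Iqsec3, which follows Slc6a12, was 3.84-fold higher in NeuN+ of PFC and 1.59-fold lower in NeuN+ of cerebellum (limma adjusted p = 1.1e-05 and 0.00186). Slc6a12 and Usp18 passed the filter only through NeuN- groups, so a lower NeuN+ value was fixed in advance and their p-values are no support for the Slc6a13 result.

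Summed over Slc6a11, Slc6a12 and Slc6a13, the messages reached 0.342 and 0.535 FPKM in PFC NeuN+, 20.0 and 22.4 in PFC NeuN-, 0.116 and 0.0447 in cerebellum NeuN+, and 30.7 and 32.4 in cerebellum NeuN-. As listed, and subject to the unchecked counting of each gene, Slc6a13 made up 95.4% and 92.9% of that sum in PFC NeuN- and 86.1% and 85.6% in cerebellum NeuN-. Slc6a12 made up 4.38% and 6.66% in PFC NeuN- and 13.2% and 13.4% in cerebellum NeuN-, and Slc6a11 stayed at or under 0.970% in these 4 libraries. The taurine carrier gene Slc6a6 had another pattern in PFC, where it was 2.54-fold higher in NeuN+ (limma adjusted p = 1.6e-05); in cerebellum its log2 change was -0.0012 (95% interval -0.21 to 0.21).

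**Figure D3:**
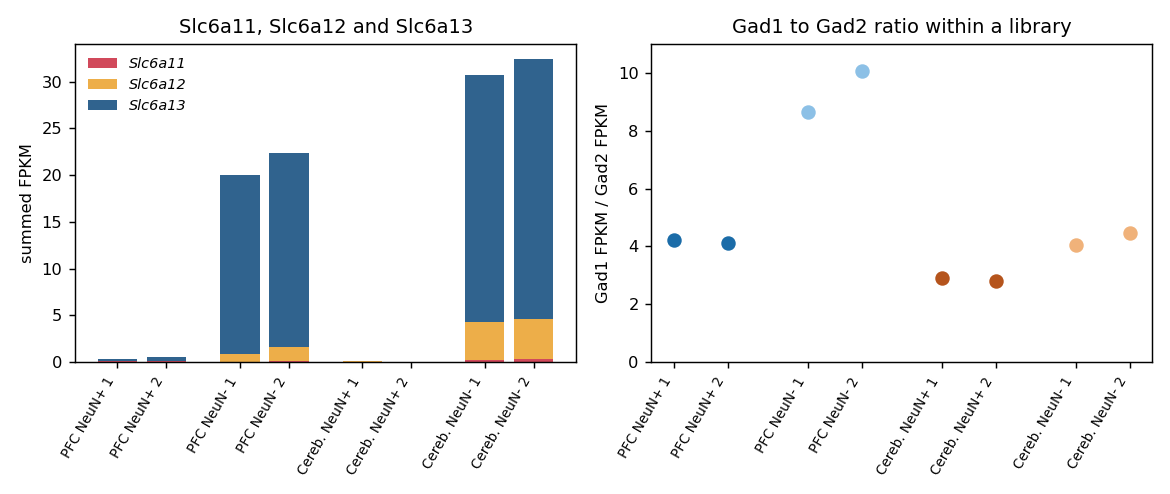
Left, FPKM of Slc6a11, Slc6a12 and Slc6a13 stacked for each of the 8 libraries (vertical axis, summed FPKM, from 0). Right, FPKM of Gad1 divided by that of Gad2 in each library. The NeuN- libraries of both regions have the tall bars, mostly Slc6a13, and the PFC NeuN- libraries have the highest Gad1 to Gad2 ratios, 8.66 and 10.1. How completely each gene was counted could not be checked.

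Genes of the pathway around the members were mixed in direction. Of 34 further pathway genes, 32 passed the filter. In PFC 14 were higher (background 35%) and 15 lower (background 37.6%) in NeuN+. In cerebellum 13 were higher (background 32.4%) and 16 lower (background 39.2%). The medians were -0.05 in PFC and -0.21 in cerebellum. Without scaling the PFC split was 11 higher and 16 lower, and with a common sum 15 and 13. Of 4 breakdown and side-route enzyme genes, 3 were lower in NeuN+ of PFC (background 37.6%) and 4 in NeuN+ of cerebellum (background 39.2%). In PFC the count was 4 without scaling and 2 with a common sum, and in cerebellum it was 3 with quantile normalization. Aldh5a1, which encodes the succinic semialdehyde dehydrogenase that acts after Abat, was 1.44-fold lower in PFC and 1.18-fold lower in cerebellum (limma adjusted p = 9.0e-04 and 0.032). Maob, the monoamine oxidase gene of a putrescine route to GABA, was 4.93-fold and 2.69-fold lower on the scale of FPKM + 1 (limma adjusted p = 1.3e-06 and 8.8e-06). The ratio of its scaled means, NeuN- to NeuN+, was 6.23 in PFC and 4.81 in cerebellum. Aldh1a1 was 5.71-fold lower in NeuN+ of cerebellum (limma adjusted p = 1.0e-06) and did not pass in PFC (adjusted p = 0.12).

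Of 10 tested genes for the supply of glutamate and glutamine, 5 were higher and 5 lower in NeuN+ of PFC (background 35% and 37.6%). In NeuN+ of cerebellum 3 were higher and 6 lower (background 32.4% and 39.2%). Glul, the glial glutamine synthetase gene, was 9.10-fold lower in NeuN+ of PFC and 4.09-fold lower in NeuN+ of cerebellum, and the glutamine carrier gene Slc38a3 was 24.2-fold and 18.6-fold lower (largest limma adjusted p of the 4 values 2.8e-07). The glutaminase gene Gls2 was 3.79-fold and 5.79-fold higher in NeuN+ (limma adjusted p = 2.6e-06 and 9.9e-07). Slc38a1, a glutamine carrier gene, rose by 0.79 on the log2 scale in NeuN+ of PFC and changed by -1.07 in NeuN+ of cerebellum (limma adjusted p = 3.6e-05 and 8.5e-06), the same pair of directions as Gad2.

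Genes that act on the GABA response also differed between gates. Slc12a5, which encodes the chloride exporter KCC2, was 1.79-fold higher in NeuN+ of PFC and 1.48-fold higher in NeuN+ of cerebellum, and Slc12a2, which encodes the chloride importer NKCC1, was 4.01-fold and 1.58-fold lower (largest limma adjusted p 2.3e-04). Of 8 tested genes for GABA-B receptors and inhibitory postsynapse scaffolds, 4 were higher and 3 lower in NeuN+ of each region. The background was 35% higher and 37.6% lower in PFC, and 32.4% and 39.2% in cerebellum. Without scaling the PFC split was 2 and 3, and with quantile normalization the cerebellar split was 5 and 1. The GABA-B receptor gene Gabbr2 was 1.99-fold and 2.04-fold higher in NeuN+ (limma adjusted p = 3.5e-05 and 2.8e-05).

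Genes for partners of the decarboxylases did not follow Gad1 and Gad2 in cerebellum. All 4 of those listed were higher in cerebellum NeuN+ under each scaling (background 32.4%). In PFC 2 were higher (background 35%) and 1 lower (background 37.6%), and 1 and 1 without scaling. Pdxk, the pyridoxal kinase gene for the cofactor, was 1.45-fold higher in NeuN+ of cerebellum (limma adjusted p = 9.5e-04). Zdhhc17, a palmitoyltransferase gene known to act on GAD65, was 1.26-fold higher there (limma adjusted p = 8.0e-04).

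Markers of the cell types in the gates are given beside these results; their part in the results was not tested, and in these pooled nuclei fewer nuclei of a type and less RNA per nucleus cannot be told apart. Cerebellar inhibitory interneuron genes were mostly lower in NeuN+ of cerebellum, where Gad1 and Gad2 were lower too. Of 9 tested, 7 were lower (background 39.2%) and 1 higher (background 32.4%), with a median log2 change of -1.73 against -0.04 for all features. Prkcd, Ptprk, Sorcs3 and Lypd6 were 6.09-fold, 5.68-fold, 4.45-fold and 3.62-fold lower (largest limma adjusted p 1.1e-05). In PFC the same list was split, with 4 genes higher (background 35%) and 3 lower (background 37.6%) in NeuN+. There Ptprk and Sorcs3 were 2.30-fold and 1.48-fold higher in NeuN+ (limma adjusted p = 1.2e-05 and 6.4e-04), and Prkcd and Lypd6 were 5.81-fold and 1.68-fold lower (adjusted p = 3.1e-07 and 9.2e-04). The list summed to 15.9 and 16.8 scaled FPKM in cerebellum NeuN+ and 76.8 and 80.9 in cerebellum NeuN-, with Pax2 at 0 in NeuN+. The Purkinje cell list had 9 tested genes in cerebellum, of which 3 rose, 2 fell and 4 were not called, with Skor2 at 0 in all groups. It summed to 1351 and 1409 in cerebellum NeuN+ and 1241 and 1299 in cerebellum NeuN-. In PFC this list summed to 420 and 426 in NeuN+ and 565 and 642 in NeuN-. The interneuron list summed there to 55.6 and 56.9 in NeuN+ and 55.7 and 59.2 in NeuN-. Neither sum is therefore specific to cerebellar cells. All 9 granule cell genes were higher in cerebellum NeuN+ (sums of 789.9 and 794 against 227 and 228). A lower level in cerebellum NeuN+ was not particular to the interneuron list. The median changes were -2.79 for astrocyte, -2.55 for oligodendrocyte and -1.99 for Bergmann glia genes. Medians above 0 were those of granule cell (1.77), Purkinje cell (0.18) and choroid plexus genes (0.16).

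In PFC, cortical GABA neuron genes were divided between the gates. Of 14 tested, 6 were higher in NeuN+ (background 35%), 3 lower (background 37.6%) and 5 did not pass, with a median of 0.04 and Sp9 at 0 in NeuN+ (5 higher and 5 lower without scaling). The list summed to 1208 and 1308 scaled FPKM in NeuN+ and 1523 and 1664 in NeuN-. Most of each sum was Sst and Npy, whose levels are given below, so the sums say little about the other genes of the list. Adarb2 was 2.03-fold higher in NeuN+ of PFC (limma adjusted p = 3.6e-05) and 3.45-fold lower in NeuN+ of cerebellum (adjusted p = 3.1e-06). Between NeuN+ groups, 3 of the 14 were higher (background 36.5%) and 10 lower (background 40.7%) in cerebellum than in PFC. Of the 18 listed, 8 were at 0 in both cerebellum NeuN+ libraries. Tested genes among these passed the filter through other groups, so this count is no support for a difference between the regions. Dlx1, Lhx6, Sst and Npy are named after their values were seen and outside the naming rule given below, and none of the 3 lower genes is named. The transcription factor genes Dlx1 and Lhx6 were 2.41-fold and 2.01-fold higher in NeuN+ of PFC (limma adjusted p = 4.9e-06 and 1.4e-04), at 1.80 and 2.17 scaled FPKM. Both passed the filter only through PFC NeuN+, so a higher value there was fixed in advance. Their p-values are therefore no support for a difference from other genes of the list. The abundant peptide genes Sst and Npy stood at 792 ± 60.2 and 345 ± 13.8 in NeuN+ and at 1145 ± 66.9 and 343 ± 28.7 in NeuN- (SD, n = 2; limma adjusted p = 0.0715 and 0.924).

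Most glial, fibroblast and vascular lists were lower in NeuN+, as Slc6a13 was, and choroid plexus genes were split. Of all tested features, 37.6% were lower and 35% higher in NeuN+ of PFC. In NeuN+ of cerebellum 39.2% were lower and 32.4% higher. Meningeal and perivascular fibroblast genes were lower in NeuN+ for 7 of 8 tested in PFC and 8 of 8 in cerebellum, and summed to 1.30 and 1.36 scaled FPKM in PFC NeuN+, 34.3 and 37.4 in PFC NeuN-, 0.625 and 0.771 in cerebellum NeuN+, and 45.3 in both cerebellum NeuN- libraries. With the whole list under 1 in cerebellum NeuN+, its tested genes passed the filter through other groups. These fibroblast counts are therefore no support for the Slc6a13 result. Of the 12 listed, 6 were at 0 in PFC NeuN+ and 7 in cerebellum NeuN+; Col1a1 was at 0 in PFC NeuN- and Bmp6 in cerebellum NeuN-. The carrier gene Slc6a20a was 10.7-fold lower in NeuN+ of PFC (limma adjusted p = 4.4e-07) and was listed at 0 in cerebellum NeuN+ against 14.5 ± 0.210 scaled FPKM in cerebellum NeuN- (adjusted p = 3.8e-07). Dcn, the decorin gene, was listed at 0 in PFC NeuN+ and stood at 6.12 ± 0.527 in PFC NeuN-. Slc6a20a and Dcn, too, passed the filter only through NeuN- groups. All 13 astrocyte genes were lower in NeuN+ in both regions, with sums of 80.1 and 80.2 against 1070.3 and 1119 in PFC and 158 and 165 against 993 and 998 in cerebellum, and none was at 0 in a group. Pericyte, smooth muscle and endothelial genes were lower for 7 of 8 in PFC and 6 of 8 in cerebellum. Of the 12 listed, 5 were at 0 in each NeuN+ group. The list summed to 5.16 and 5.73 scaled FPKM in PFC NeuN+ against 111 and 121 in PFC NeuN-. In cerebellum it summed to 4.14 and 4.40 against 70.8 and 76.6. Here and in the other lists, tested genes under 1 FPKM in both NeuN+ groups passed the filter only through NeuN- groups. Their counts are no support for the Slc6a13 result. Oligodendrocyte genes were lower for 11 of 11 in both regions, oligodendrocyte precursor genes for 4 of 5 and 5 of 5, microglia genes for 8 of 8 and 7 of 8, and Bergmann glia genes for 6 of 9 and 9 of 9. In PFC, 1 precursor gene and 2 Bergmann glia genes were higher in NeuN+. Choroid plexus genes were lower for 1 of 4 in PFC and 2 of 4 in cerebellum, and another 2 were higher in NeuN+ of cerebellum. They summed to 10.5 and 12.1 scaled FPKM in cerebellum NeuN+, 7.83 and 9.01 in cerebellum NeuN-, and 1.72 at most in PFC. Cortical excitatory neuron genes were higher in NeuN+ for 7 of 9 in PFC and 3 of 9 in cerebellum.

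**Figure D4:**
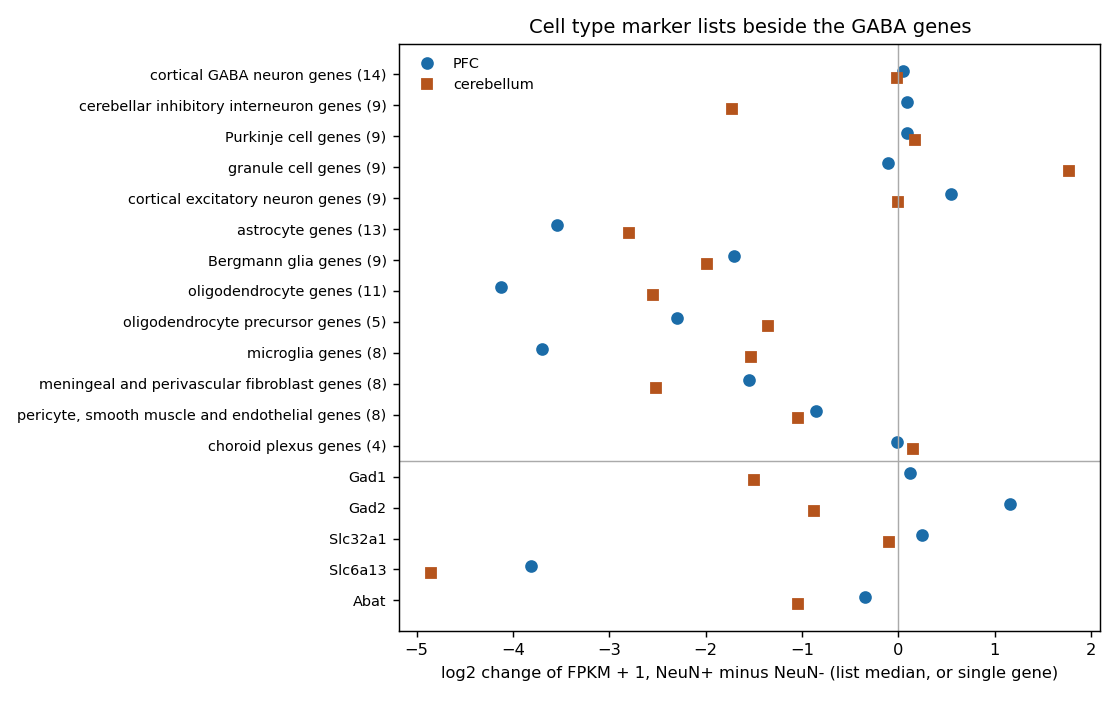
Median log2 change of FPKM + 1, NeuN+ minus NeuN- (horizontal axis), of 13 cell type marker lists (number of tested genes in parentheses) and the change of 5 GABA genes, in PFC (circles) and cerebellum (squares). In cerebellum Gad1 (-1.50) and Gad2 (-0.87) lie left of 0, as do the inhibitory interneuron list (-1.73) and the glial, fibroblast and vascular lists (astrocyte genes -2.79). In PFC Gad1 and Gad2 lie at 0.13 and 1.16. Slc6a13 lies left of 0 in both regions (-3.81 in PFC and -4.85 in cerebellum).

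The features whose pattern over the 8 libraries was most like each member were found by the root mean square difference of centred log2(scaled FPKM + 1) among 8902 features. For Gad1 they were Tma16 (0.0492), Ncam2 (0.0783) and Acvr1 (0.106), and for Gad2 Fubp3 (0.0394), Zfp930 (0.102) and Msh3 (0.112). For Slc32a1 they were Eef1d (0.0830), Nhlh2 (0.0904) and Unc5c (0.0930), and for Abat Cdkn1a (0.0742), Akt2 (0.0783) and Pofut1 (0.0921). For Slc6a13 the nearest were Cbs (0.165), which encodes cystathionine beta-synthase, Pipox (0.231) and Slc47a1 (0.274). Cbs stood at 0.814, 33.0, 0.677 and 45.3 scaled FPKM in PFC NeuN+, PFC NeuN-, cerebellum NeuN+ and cerebellum NeuN-.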

How the data were processed

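RNA of sorted nuclei was measured in 8 libraries of 1 mouse, and the 4 groups and replicate numbers came from the sample titles. The deposited values are FPKM with confidence limits in gene-level Cufflinks tables, made by the authors, per the file headers. Tools listed in the submitters' processing notes, without their roles, are Cufflinks, Bismark, Bowtie 1.1.1, TopHat2 2.1.1 and Trim Galore 0.3.7, with the build mm9. The annotation, the strand setting and the version of Cufflinks are not stated. The deposited FPKM were divided by length and library size and are not counts, and a failed estimate can be listed as 0; all values of the 6 members carry the status OK. Start coordinates had 1 added.

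FPKM were multiplied by median-of-ratios factors computed from the 9109 features that reach 1 FPKM in every library (0.869 to 1.04). Features with at least 1 FPKM in 2 or more libraries (14376) were fitted as log2(scaled FPKM + 1) with limma 3.58.1 in R 4.3.3, 1 mean per group, a variance trend and 4 residual degrees of freedom; tests were two-sided, with Benjamini-Hochberg adjustment over all features and a threshold of 0.05. The pseudocount of 1 understates changes of low genes. The script was tested on simulated data. No adjustment was made over the members alone, and no set test was run. The members, gene lists and rules were chosen with earlier results of these data known. Named genes were the members, the pathway lists, up to 4 called markers per list and direction with at least 5 scaled FPKM, features flanking a member, and the 3 features of most like pattern with a group mean of at least 5. Dlx1, Lhx6, Sst and Npy were named outside this rule. Upstream sequences came from a RefSeq table of GRCm38.p6, which matched 5 of the 6 members. Alternatives covered scaling, pseudocount, filter, variance trend, the groups in the fit, a replicate block and each library left out. The chromatin samples of the series were not analysed here, and some genes of the lists are not reported here.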

Additional observations from a re-analysis of the deposited data

Results flagged for a closer look

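The gate change (NeuN+ minus NeuN-) differed between cerebellum and PFC for all 5 members tested, by the limma test of the difference itself. In log2 units, cerebellum minus PFC, the difference was -2.04 for Gad2 (adjusted p = 8.3e-06), -1.62 for Gad1 (9.1e-06), -1.04 for Slc6a13 (9.8e-04), -0.69 for Abat (0.00115) and -0.35 for Slc32a1 (0.0233). Of all tested features, 70.1% were called in this comparison, 37% in this direction and 33.1% in the opposite one. The 5 calls were not tested against these shares. Slc6a13 passed the filter only through NeuN- groups and Slc32a1 only through cerebellum, so their p-values are no support for a difference from other genes. The Slc6a13 value rests on values listed at 0 in cerebellum NeuN+ and was -2.69 with a pseudocount of 0.1. The Slc32a1 call was lost with quantile normalization (-0.20, limma adjusted p = 0.134) and without any of 5 libraries: PFC NeuN+ replicate 1, PFC NeuN- replicate 2, cerebellum NeuN+ replicate 1, cerebellum NeuN+ replicate 2 and cerebellum NeuN- replicate 2 (values from -0.27 to -0.34).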

How the results depend on the processing

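Of 440 recomputed member values (25 results, 10 settings and 8 libraries left out), 420 kept their direction and their side of the threshold, 12 lost a call, 4 gained one and 4 turned their sign. The sign turned for Gad1 between PFC gates without scaling (-0.11), for Slc32a1 between cerebellar gates with quantile normalization (0.20), and for Gad1 between NeuN- groups with a common sum (0.24) and with quantile normalization (0.24); the cause was not tested. Features called ranged from 7359 to 12081 between PFC gates (main count 10431) and from 7344 to 11382 between cerebellar gates (main count 10300). With the replicate block, which rests on numbers shared by title only (correlations of same-numbered deviations from -0.0451 to 0.0342), 10343 features were called between PFC gates and 10184 between cerebellar gates, and all 25 member results kept their call. Slc32a1 had no value with the filter at 5 FPKM. The unknown depth and FPKM near 0 limit Slc6a11 and PFC Slc32a1.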
